A study of Mus musculus with 4 samples.

Results

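Genes that encode regulators of chromatin were examined for binding of OTX2, a homeobox transcription factor, in mouse epiblast stem cells (EpiSCs) on their way to definitive endoderm (DE). The group holds 46 of the 21887 protein-coding genes placed on chromosomes, listed by name as writers, erasers, remodellers and corepressors. The list was drawn up with earlier results of these data known, and all 46 symbols matched the annotation. OTX2 was located by CUT&RUN: an antibody brings a nuclease to sites of the bound factor, and the DNA it cuts free is sequenced. The antibody was against HA, used in lines named 7H, 7H1 and 7H2 OTX2-dTAG-EGFP, all of a BL6/129 hybrid genotype. EpiSCs were kept in Activin A (20 ng/ml), FGF2 (12.5 ng/ml) and NVP (175 nM). They reached the primitive streak (PS) stage after 16 h with Activin A at 40 ng/ml plus the WNT activator CHIR at 3 uM. DE followed after a further 24 h with Activin A at 100 ng/ml plus LDN, which blocks BMP receptors, at 100 nM. The libraries described by the labels are from PS cells: 3 with anti-HA, 1 from each line, and 1 with control IgG from line 7H2. No EpiSC or DE library is among them. The antibody, line and depth behind the DE and EPI parts of the region lists described below are thus not known. All carry the tagged OTX2, and the sources do not say whether the lines are separate clones.

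Binding is given as 4 lists of positions in the genome, named PS only, PS and DE, DE only, and EPI and PS; the last name is written as the authors gave it. They hold 1634, 6157, 31445 and 379 regions and carry no height and no value per library. Depth and the spread between replicates are thus unknown, anti-HA could not be compared with IgG, and the stage identity of the cells could not be checked against marker genes. Each region went to the gene that held its midpoint between the first and last annotated base (the gene span), to the shortest gene where several did, and a region in no gene went to the closest gene end, up to 100 kb away. An assigned region is a position, and the gene it acts on, if any, was not measured. Exon positions were not used here, so a position inside a gene may be exonic, intronic or in a UTR.

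Chromatin regulators change how DNA is packed without changing its sequence. Polycomb repressive complex 2 (PRC2) methylates lysine 27 of histone H3 and PRC1 ubiquitinates histone H2A, and both hold developmental genes silent in pluripotent cells. KMT2 enzymes methylate lysine 4 of histone H3, KDM enzymes remove histone methyl groups, DNMT enzymes methylate cytosine and TET enzymes oxidise it, and SWI/SNF and CHD complexes move or evict nucleosomes. Many of these proteins are present in most cell types, and several are needed for pluripotent cells to leave that state and take up a lineage.

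Most of the 46 genes held OTX2 regions, and most of those regions were in the DE only list. At least 1 DE only region was assigned to 35 of the 46 genes (76.1%, 95% Wilson interval 62.1 to 86.1), against 50.1% of all protein-coding genes. PS and DE regions were assigned to 17 genes (37.0%, 24.5 to 51.4), against 16.3% of all genes. PS only regions were assigned to 4 genes (8.70%, 3.43 to 20.3), against 5.60%, and EPI and PS regions to 2 genes (4.35%, 1.20 to 14.5), against 1.45%. Over the 4 lists together 40 of the 46 genes held a region (87.0%, 74.3 to 93.9), against 54.7% of all genes. The intervals cover counting error only, and no test was run on these shares.

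These 46 genes are long, and long genes collect more regions. Their median span was 77.8 kb, against 17.2 kb over all protein-coding genes, with a range from 8.26 kb at Cbx2 to 870 kb at Hdac9. Beside the 3429 protein-coding genes with spans between the quartiles of this group (45.3 to 118 kb), the shares lay closer together: 72.1% of those genes held a DE only region, 25.8% a PS and DE region, and 77.3% a region of any list. For PS only the share was 9.42% and for EPI and PS 1.81%. The PS and DE share of those genes was within the interval of the chromatin regulators (24.5 to 51.4), as were those for DE only and for any list. A share near this background is not a result about the group. Inside gene spans the density was 19.3 regions per Mb at the 46 genes, 18.7 at the genes of like span and 17.8 over all protein-coding genes. At 102 other chromatin regulator genes it was 23.8 per Mb.

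**Figure D1:**
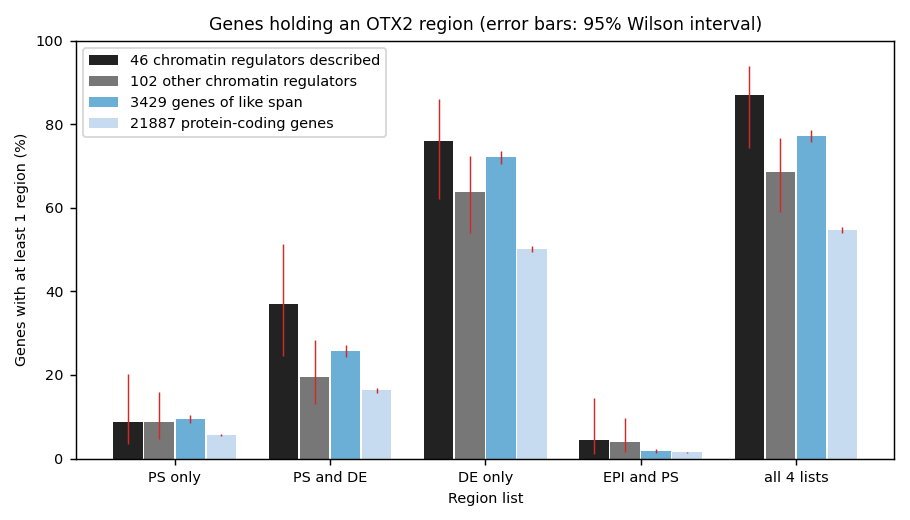
Percentage of genes with at least 1 assigned region (vertical axis) in each region list (horizontal axis), for the 46 chromatin regulators described, 102 other chromatin regulators, 3429 genes of like span and all 21887 protein-coding genes; error bars are 95% Wilson intervals. For DE only the 46 genes stood at 76.1%, the genes of like span at 72.1% and all genes at 50.1%.

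The number of regions per gene rose with span and was uneven. The median was 2 regions per gene, against 1 over all protein-coding genes and 2 in the genes of like span. Hdac9, Jarid2 and Arid1b together held 41 of the 143 assigned regions (28.7%), and the 10 genes with the most held 84 (58.7%), while 15 genes held 1 region each and 6 held 0. Across the 46 genes the Spearman correlation of span with region count was 0.423, and across all 21887 genes 0.487, given as descriptions because the counts share the same 4 lists. Against genes of their own span class, Jarid2 stood highest of the 46: 98.0% of 1439 genes of 100 to 200 kb held fewer than its 13 regions, and the class mean was 3.84. Kdm6b and Eed, with 4 regions each, held more than 90.2% of 5093 genes of 20 to 50 kb. Kmt2c, with 1 region in 227 kb, held more than 7.99% of the 638 genes of 200 to 400 kb, where the mean was 6.09.

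**Figure D2:**
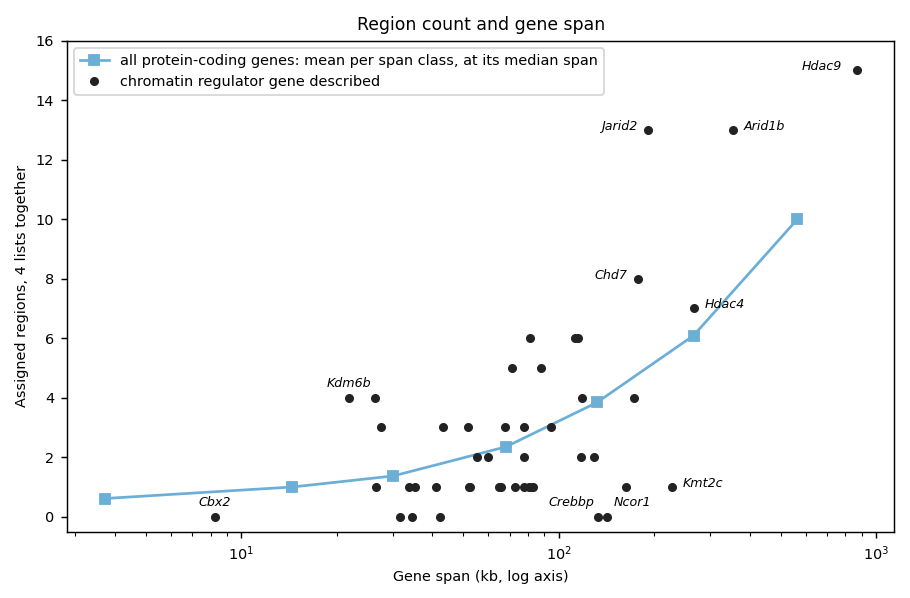
Assigned regions of all 4 lists (vertical axis) against gene span in kb (horizontal log axis) for each of the 46 genes (black points), with the mean over all protein-coding genes in 7 span classes (blue squares, drawn at the median span of the class). Jarid2, with 13 regions, lies above the 3.84 of its class, while Crebbp and Ncor1 lie at 0.

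By stage, the regions at these genes were divided much as regions at other genes were. Of the 143 regions, 109 were DE only (76.2%, 68.6 to 82.5), 27 PS and DE (18.9%, 13.3 to 26.1), 5 PS only (3.50%, 1.50 to 7.92) and 2 EPI and PS (1.40%, 0.384 to 4.96). At all other genes the shares were 79.4%, 15.5%, 4.12% and 0.966% of 34473 regions, each within the corresponding interval. By gene, 20 of the 46 held regions of DE only and of no other list, and 11 held both PS and DE and DE only regions. A further 4 (Ezh1, Kdm2a, Kdm4a and Suz12) held only PS and DE regions. These patterns were not counted over all genes, so whether they differ from other genes is not known. Of DE only regions at the 46 genes, 42.2% (33.4 to 51.6) had a PS and DE region no more than 50 kb away, against 34.9% at other genes. The median width was 113 bp, from 56 to 410 bp, against 118 bp at other genes.

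Regions at these genes lay mostly within the gene. The midpoint was inside the assigned gene for 97 of 143 regions (67.8%, 59.8 to 74.9), against 53.9% at other genes. At the genes of like span it was inside for 4682 of 8239 regions. The part of gene span in this share was not tested. None of the regions within the 46 spans was assigned to a shorter overlapping gene. A midpoint within 1 kb of either gene end was found for 17 regions (11.9%, 7.56 to 18.2), against 14.9% at other genes. Strand was given for 35 of the 46 genes. Of the 110 regions at the 30 of these genes that held one, 24 lay upstream of the gene (21.8%), 80 inside (72.7%) and 6 downstream (5.45%), against 28.6%, 53.9% and 17.5% at other genes. Inside the gene, 32 of 80 regions (40.0%) lay in the 5′-most 25% of the span, against 35.0% at other genes. All 11 regions within 1 kb of an end, where strand was given, were at the 5′ end, against 88.0% of 4148 at other genes. Regions at 1 gene are not independent of each other, so no test was made of these shares.

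The starts of 11 genes carried an OTX2 region. RefSeq promoter windows of build GRCm38.p6 (mm10), from 250 bases before a listed gene start to 50 after, were matched for 35 of the 46 genes, some with several starts. A region overlapped a window of 11 of the 35 (31.4%), against 18.4% of 17492 protein-coding genes with an entry. Counted by window, 11 of 51 windows (21.6%) were overlapped, against 16.3% of 21263. Windows of the 46 genes had a median GC content of 65.7%, against 56.3% over all windows and 61.7% over all overlapped windows, and the part of GC content in the overlap was not tested. Ezh1 was overlapped by a PS and DE region. Cbx7, Chd8, Jarid2, Kdm1a, Kdm4c, Kmt2a, Setdb1, Smarca4, Tet2 and Tet3 were overlapped by DE only regions, at an internal or alternative listed start for Cbx7, Kdm4c and Tet3, whose regions lay more than 1 kb inside the span.

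**Figure D3:**
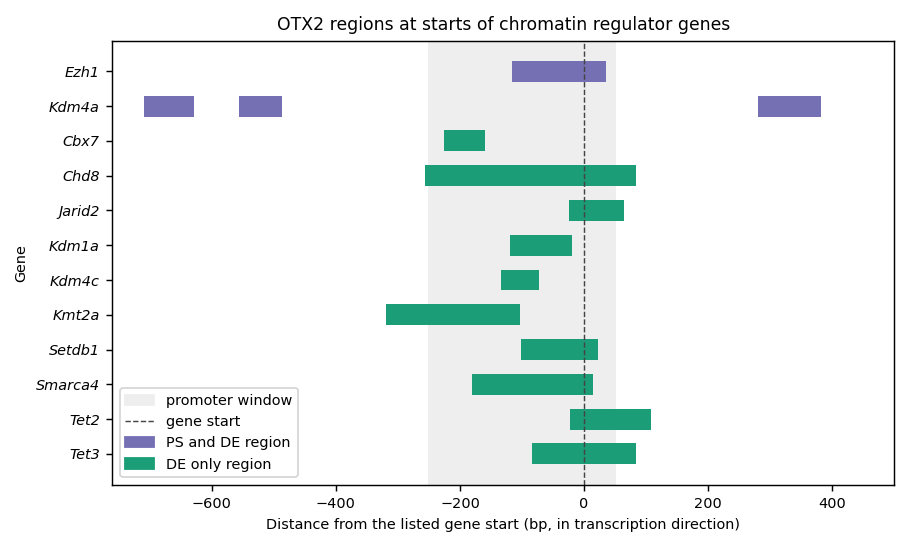
OTX2 regions (bars) at listed starts of 12 chromatin regulator genes, with distance from the start in bp along the direction of transcription on the horizontal axis; the grey band is the promoter window and the dashed line the start. Of the 11 overlapped windows that of Ezh1 holds a PS and DE region and the other 10 hold DE only regions, while the 3 PS and DE regions of Kdm4a lie on both sides of its window without entering it.

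For 6 of these genes the region covered at least 100 of the 250 bases before the start, and these bases are shown because they hold the DNA that the region lists mark. They run 5′ to 3′ on the strand of the gene and end at the base before the start, from RefSeq GRCm38.p6; capitals mark the bases inside the OTX2 region.
Ezh1, chr11:101226464-101226713, minus strand, PS and DE region, 116 bases in capitals: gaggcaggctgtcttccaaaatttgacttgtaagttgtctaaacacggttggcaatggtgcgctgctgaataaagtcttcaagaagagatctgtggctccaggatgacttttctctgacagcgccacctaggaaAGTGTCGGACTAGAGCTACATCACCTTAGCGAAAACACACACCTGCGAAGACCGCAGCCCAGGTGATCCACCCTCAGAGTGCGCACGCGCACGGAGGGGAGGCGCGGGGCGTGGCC
Kmt2a, chr9:44881290-44881539, minus strand, DE only region, 147 bases in capitals: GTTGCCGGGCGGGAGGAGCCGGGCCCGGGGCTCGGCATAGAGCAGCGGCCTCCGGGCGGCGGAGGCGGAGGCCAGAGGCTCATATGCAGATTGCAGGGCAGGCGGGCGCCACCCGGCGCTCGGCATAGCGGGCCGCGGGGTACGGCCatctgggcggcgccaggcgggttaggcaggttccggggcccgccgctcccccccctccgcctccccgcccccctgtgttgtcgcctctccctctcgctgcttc
Smarca4, chr9:21615919-21616168, plus strand, DE only region, 180 bases in capitals: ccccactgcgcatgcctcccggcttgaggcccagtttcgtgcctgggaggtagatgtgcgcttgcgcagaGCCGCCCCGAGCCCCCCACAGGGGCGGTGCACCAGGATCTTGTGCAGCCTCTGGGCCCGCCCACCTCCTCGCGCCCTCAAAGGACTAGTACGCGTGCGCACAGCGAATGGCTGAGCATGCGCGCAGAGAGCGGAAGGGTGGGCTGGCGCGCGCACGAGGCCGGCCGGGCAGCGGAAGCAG
Chd8, chr14:52257761-52258010, minus strand, DE only region, 250 bases in capitals: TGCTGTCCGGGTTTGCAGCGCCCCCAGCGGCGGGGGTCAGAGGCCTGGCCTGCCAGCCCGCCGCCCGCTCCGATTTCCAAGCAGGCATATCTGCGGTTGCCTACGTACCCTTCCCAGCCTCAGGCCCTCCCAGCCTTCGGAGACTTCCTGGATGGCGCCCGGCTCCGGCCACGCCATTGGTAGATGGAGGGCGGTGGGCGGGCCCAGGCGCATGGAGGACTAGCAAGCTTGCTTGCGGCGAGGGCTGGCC
Kdm1a, chr4:136602724-136602973, minus strand, DE only region, 100 bases in capitals: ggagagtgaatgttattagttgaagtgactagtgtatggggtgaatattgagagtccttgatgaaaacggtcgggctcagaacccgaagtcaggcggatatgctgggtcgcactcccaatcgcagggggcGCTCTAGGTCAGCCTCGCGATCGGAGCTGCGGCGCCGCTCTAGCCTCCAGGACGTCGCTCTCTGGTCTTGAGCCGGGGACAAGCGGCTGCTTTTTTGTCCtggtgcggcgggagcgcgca
Setdb1, chr3:95357203-95357452, minus strand, DE only region, 101 bases in capitals: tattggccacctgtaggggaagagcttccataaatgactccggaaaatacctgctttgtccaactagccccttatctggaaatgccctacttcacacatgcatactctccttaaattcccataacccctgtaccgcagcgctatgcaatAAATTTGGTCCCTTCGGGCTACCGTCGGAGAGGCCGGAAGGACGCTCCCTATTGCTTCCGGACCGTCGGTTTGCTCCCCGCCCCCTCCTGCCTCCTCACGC

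The regions of Ezh1, Smarca4, Chd8 and Setdb1 ran past the start, by 35, 14, 82 and 22 bp. Those of Kdm1a and Kmt2a ended before it, 21 and 104 bp upstream. OTX2 is known to recognise the core TAATCC. It was searched on both strands (TAATCC or GGATTA) in all promoter windows. The core was found in 0 of the 11 overlapped windows of the 46 genes and in 3 of the 40 others (7.50%), 1 window each of Hdac9, Kdm2b and Kdm4c. Of all 21263 windows 6.42% held it, as did 6.70% of the overlapped ones. A match is a description of letters, and its absence says only that these letters are not in the window. Sequence of the regions outside these windows was not used here.

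**Figure D4:**
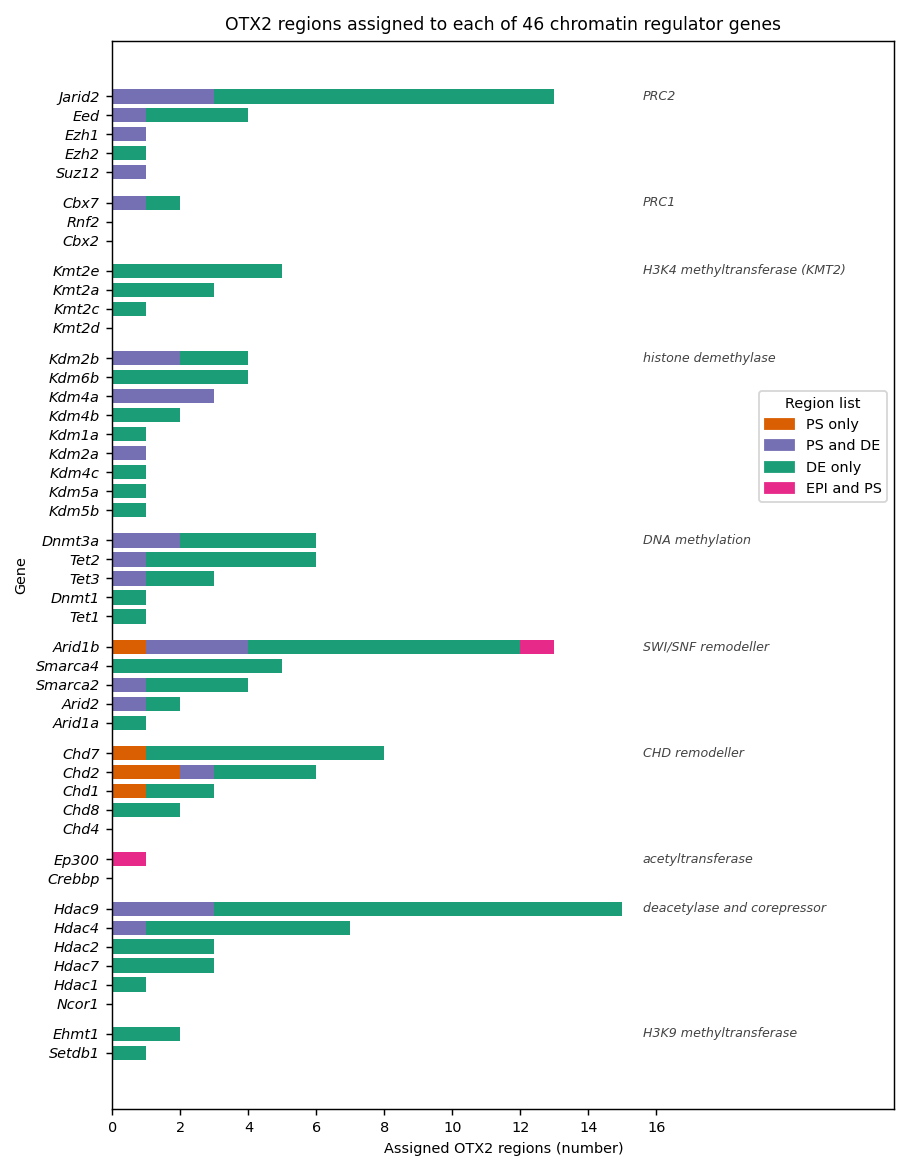
Number of assigned OTX2 regions (horizontal axis) at each of the 46 genes, grouped by role, with colours for the 4 region lists. Hdac9 holds 15, Jarid2 and Arid1b 13 each, and PS only regions are found at Arid1b, Chd1, Chd2 and Chd7.

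All 5 PRC2 genes held a region (Wilson interval 56.6 to 100%), and 4 of them a PS and DE region (80.0%, 37.6 to 96.4). Among the genes of like span 77.3% and 25.8% did. Their range of 45.3 to 118 kb holds Ezh2 but not Ezh1, Suz12, Eed or Jarid2, so it is not matched to this role. Several genes of other roles also lie outside it. Of 6 further PRC2 genes all 6 held a region and 2 a PS and DE region (33.3%). With 5 genes no difference from these shares was tested, and the counts for each role are read as descriptions. Jarid2, which encodes a DNA-binding partner that helps recruit PRC2, lies at chr13:44730774-44921643 and held 10 DE only and 3 PS and DE regions. Of these, 9 lay inside the gene, within 85.6 kb of its 5′ end, and 4 lay upstream, out to 95.4 kb. A DE only region at chr13:44731247-44731334 had its midpoint 19 bp past a listed start, and another at chr13:44729539-44729730 was centred 1140 bp upstream of the gene. The PS and DE regions of Jarid2 were at chr13:44651717-44651807, 79.0 kb upstream, and at chr13:44747925-44747980 and chr13:44780531-44780810, 17.2 and 49.9 kb inside. The rest of its 191 kb, toward the 3′ end, held 0 regions.

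The core PRC2 genes each held fewer regions than Jarid2. Eed, whose product reads methylated lysine 27, held 3 DE only regions, among them one of 410 bp inside the gene at chr7:89957357-89957766, the widest of all 143. Its PS and DE region at chr7:89949664-89949906 lay 4.87 kb downstream. The 2 catalytic subunits differed in list and place: Ezh1 held the PS and DE region at chr11:101226428-101226579, centred 40 bp upstream of its start, and Ezh2 held a DE only region of 377 bp at chr6:47582957-47583333, 12.1 kb inside the gene. Suz12, a structural subunit, held a PS and DE region of 303 bp at chr11:79978549-79978851, 14.4 kb upstream. Of the PRC1 genes, Cbx7, encoding a chromodomain subunit that binds methylated histone H3, held a DE only region at chr15:79932807-79932871, in the window of an internal start, and a PS and DE region at chr15:79941099-79941221, 30.0 kb inside from its 5′ end. Rnf2, the ubiquitin ligase of PRC1, and Cbx2 held 0.

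The 4 genes of the KMT2 family held 9 regions at 3 genes, all DE only, where 79.4% of regions at all genes are DE only. So few regions are near that background. Kmt2e, whose product carries a PHD finger and a SET domain, held 5, of which 4 lay outside the gene span. Those at chr5:23432721-23432834 and chr5:23433356-23433468 flanked 1 gene end, 259 bp outside and 376 bp inside. Kmt2a held 3, none inside the gene; they were centred 149 bp, 8.95 kb and 11.4 kb upstream, the first at chr9:44881393-44881609. Kmt2c, a methyltransferase of enhancers, held 1 region, at chr5:25436259-25436329. Its close relative Kmt2d held 0, and the DE only region nearest to it, at chr15:98831444-98831568, lay 163 bp beyond its 3′ end and was assigned to Prkag1.

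Each of the 9 demethylase genes held at least 1 region, 18 in all, and the interval of that share (70.1 to 100%) includes the 77.3% of genes of like span. Kdm4a, which encodes an eraser of methyl marks on lysine 9 and 36 of histone H3, held 3 regions, all PS and DE and all within 1 kb of its 5′ end. They lay at chr4:118179663-118179762, centred 331 bp past the listed start, and at chr4:118180531-118180599 and chr4:118180673-118180753, centred 522 and 670 bp before it. The last 2 are 73 bp apart, and the 3 regions were 69 to 100 bp wide. The related Kdm4b held 2 DE only regions inside the gene and Kdm4c 1.

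Kdm6b, an eraser of the PRC2 mark, held 4 DE only regions inside a gene of 21.9 kb. They were at chr11:69401371-69401516, chr11:69417590-69417703, chr11:69417910-69418193 and chr11:69419928-69419998, the last 404 bp from 1 gene end. This was 18.3 regions per 100 kb of span, the highest density inside a gene among the 46, ahead of Dnmt3a at 5.32. Kdm2b, which brings a variant PRC1 to unmethylated CpG islands, held 2 DE only and 2 PS and DE regions. Its PS and DE regions lay at chr5:122955080-122955226, 34.1 kb inside, and at chr5:122996907-122996973, 7.67 kb upstream. Kdm1a (LSD1, an eraser on lysine 4 of histone H3) held 1 DE only region at its start, Kdm2a 1 PS and DE region 22.3 kb inside, and Kdm5a and Kdm5b 1 DE only region each. The Kdm5a region lay 285 bp from an end of that gene and 15 bp from an end of Ccdc77, so its assignment rests on the midpoint rule.

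The 5 genes of DNA methylation all held DE only regions, 13 in total, and 3 of them PS and DE regions. The intervals of these shares (56.6 to 100% and 23.1 to 88.2%) include the 72.1% and 25.8% of genes of like span. Of 7 further genes of this role, with a median span of 21.3 kb against 82.9 kb, 1 held a DE only region (14.3%) and 0 a PS and DE region. Dnmt3a, a de novo methyltransferase, held 6 regions, all inside the gene. Its PS and DE regions at chr12:3890123-3890202 and chr12:3911356-3911492 lay 24.3 and 3.02 kb from the 3′ end, and 2 of its DE only regions, at chr12:3837226-3837295 and chr12:3837387-3837451, were 91 bp apart. Dnmt1, the maintenance enzyme, held 1 DE only region inside the gene. Tet2 held 6 regions, of which 3 lay beyond its 3′ end, including its PS and DE region at chr3:133462049-133462176, 1565 bp downstream, and 1 at its start, at chr3:133544283-133544413. Tet3 held 2 DE only regions 531 bp apart, 1 of them across a listed start at chr6:83441596-83441762, and a PS and DE region at chr6:83435345-83435435. Tet1 held 1 DE only region, 3.21 kb inside from its 5′ end.

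SWI/SNF genes held 25 regions, and each of the 5 held a DE only region (interval 56.6 to 100%, against 72.1% of genes of like span). Of 16 further SWI/SNF genes, with a median span of 24.0 kb against 118 kb, 8 held one. Arid1b, a DNA-binding subunit of the BAF form of the complex, was the only 1 of the 46 with regions in all 4 lists: 8 DE only, 3 PS and DE, 1 PS only and 1 EPI and PS. The PS only region at chr17:4967360-4967467 lay 26.9 kb upstream and the EPI and PS region at chr17:5093535-5093612 lay 99.3 kb inside. Its PS and DE regions were at chr17:5058444-5058545, chr17:5322036-5322122 and chr17:5324756-5324868. With 353 kb of span, Arid1b held more regions than 90.1% of genes of its span class. Its paralog Arid1a, with 77.8 kb, held 1 DE only region. Smarca4 (BRG1), an ATPase of the complex, held 5 DE only regions, 1 across its start at chr9:21615989-21616183 and 4 inside. The other ATPase gene, Smarca2, held 3 DE only regions and a PS and DE region at chr19:26676343-26676500. Arid2, a subunit of the PBAF form, held 1 DE only and 1 PS and DE region.

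The 5 CHD remodeller genes held 19 regions, of which 14 were DE only, 4 PS only and 1 PS and DE. The PS only regions were at 3 of the 5 genes (interval 23.1 to 88.2%), against 9.42% of genes of like span, but they are few. With regions of at least 150 bp, PS only regions were at 2 of all 46 genes, Chd1 and Chd7, and other genes were not counted at this width. Chd7, which encodes a remodeller of enhancers, held 7 DE only regions and a PS only region at chr4:8910249-8910438, 41.9 kb outside the gene. Chd2 held 2 PS only regions inside the gene, at chr7:73535175-73535307 and chr7:73537838-73537936, 6505 and 3859 bp from the nearer end. Its other 4 regions lay outside: a PS and DE region at chr7:73558621-73558809 and 3 DE only regions out to 65.2 kb. Chd1 held 3 regions, none inside: a PS only region at chr17:15675337-15675486, 29.6 kb away, and DE only regions 13.7 kb and 393 bp from the gene. Chd8 held 2 DE only regions, and Chd4, an ATPase of the NuRD complex, held 0. The 10 further genes of this role held 2 PS only regions.

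The 2 acetyltransferase genes held 1 region between them, and 5 of 7 further genes of this role held 17. Ep300 (p300) held 1 region, of EPI and PS, at chr15:81577152-81577270, 8998 bp upstream, and Crebbp (CBP) held 0 in its 133 kb. Among genes of 100 to 200 kb, 197 of 1439 held 0.

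The deacetylase and corepressor genes held 29 regions. Hdac9, a class IIa deacetylase, held 15: 12 DE only and 3 PS and DE, of which 13 lay inside its span of 870 kb. Jarid2, by comparison, held 4.72 regions inside the gene per 100 kb. Of genes over 400 kb, 77.6% held fewer regions than Hdac9. The PS and DE regions of Hdac9 were at chr12:34103482-34103716 (56.0 kb from its 3′ end), at chr12:34603790-34603977, and at chr12:34949935-34950034, 32.9 kb upstream. Hdac4, also of class IIa, held 6 DE only regions and a PS and DE region at chr1:92004201-92004285, all inside. Hdac7, the third class IIa member of the group, held 3 DE only regions, 2 inside and 1 at chr15:97845899-97846033, 1.46 kb upstream. Among class I genes, Hdac1 held 1 DE only region, 112 bp outside the gene. Hdac2 held 3 outside, the nearest centred 1002 bp upstream at chr10:36973198-36973392. Ncor1, a nuclear receptor corepressor, held 0.

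**Figure D5:**
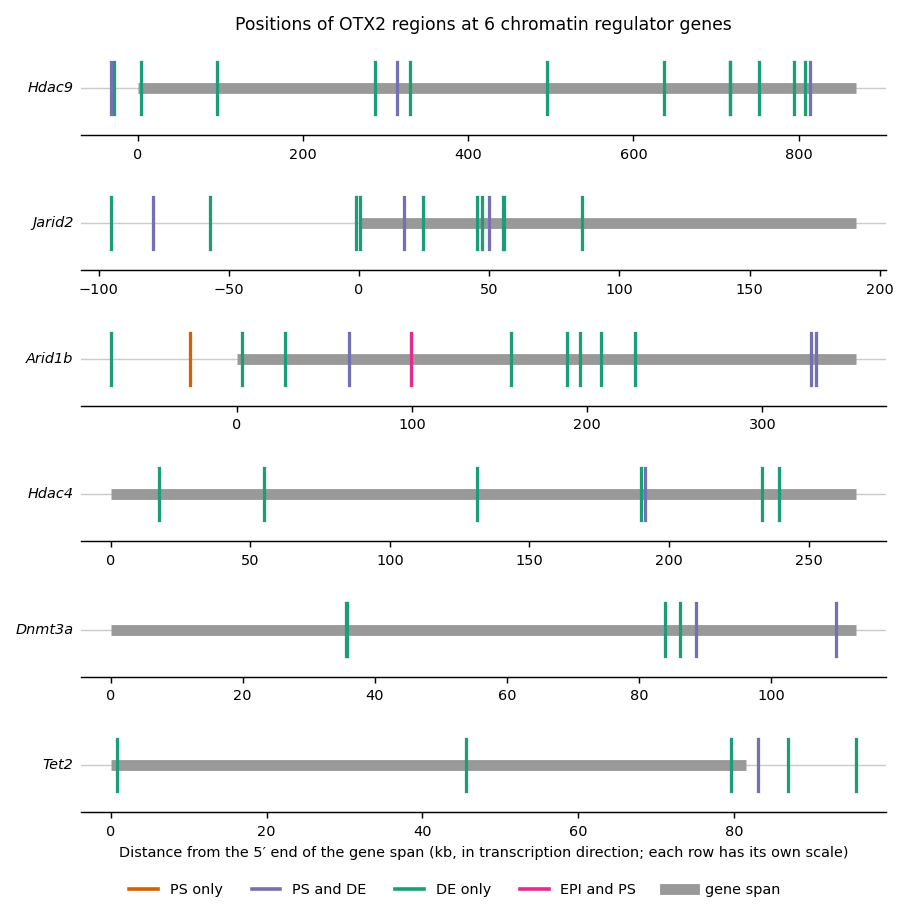
Positions of OTX2 regions (coloured lines) along 6 genes with at least 6 regions and a known strand; the horizontal axis is distance from the 5′ end of the gene span in kb, with its own scale for each gene, and the grey bar is the gene. The regions of Jarid2 end 85.6 kb into a gene of 191 kb, while those of Hdac9 are spread along its 870 kb.

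The 2 genes for methyltransferases of lysine 9 of histone H3 held 3 regions, all DE only, the list that holds 79.4% of regions at all genes. Setdb1, which works with KRAB zinc finger proteins at retroelements, held 1, across its start at chr3:95357180-95357303. Ehmt1 (GLP) held 2 inside the gene, at chr2:24888698-24888860 and chr2:24897569-24897645, 30.9 and 22.0 kb from the nearer end.

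The 6 genes with 0 assigned regions were Rnf2, Cbx2, Kmt2d, Chd4, Crebbp and Ncor1. The region of any list nearest to the gene lay 71.5 kb away for Crebbp, 42.0 kb for Rnf2, 34.8 kb for Ncor1, 13.9 kb for Chd4, 9.80 kb for Cbx2 and 0.163 kb for Kmt2d, and each was assigned to another gene. For Ncor1 the nearest was a PS and DE region and for the other 5 a DE only region. These zeros describe the deposited lists: regions with any other combination of stages, such as EPI alone, were not analysed here.

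A further 102 genes of the same complexes and enzyme families had a median span of 28.3 kb. It was 77.8 kb for the 46 and 17.2 kb over all protein-coding genes. Of the 102, 70 (68.6%, 59.1 to 76.8) held a region, against 54.7% of all protein-coding genes. Among genes of 20 to 50 kb, the class that holds their median span, 61.8% did, within that interval. Shares for each list were not computed for that class, so those that follow stand beside genes of shorter median span. DE only regions were at 65 of them (63.7%, against 50.1%), PS and DE regions at 20 (19.6%, against 16.3%), PS only at 9 (8.82%, against 5.60%) and EPI and PS at 4 (3.92%, against 1.45%). Among those with the most regions was Rybp, a subunit of variant PRC1, with 14 DE only, 1 PS and DE and 1 PS only region. Dpf3, which encodes a subunit of the BAF complex, held 14, Bcor, a corepressor within variant PRC1, held 11, and Chd9 and the acetyltransferase gene Kat6b held 8 each.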

How the data were processed

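The authors deposited 4 lists of regions with 3 columns (chromosome, start, end). The submitters' processing notes name build mm10 and MACS2 2.2.6, bedtools 2.30, Picard 2.26.10, SAMtools 1.14 and Bowtie2 2.3.5.1, without saying what each was used for. How peaks were thresholded, whether IgG was subtracted and how the lists were combined from libraries is not stated there. No per-library value was used, so n per group plays no part. CUT&RUN was done on 500000 cells per sample, per the labels' protocols.

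Starts were converted to count from 1, and 2 regions outside the assembled chromosomes were not assigned. Gene spans (GRCm38.p6) and promoter windows came from RefSeq tables. Counts and shares, with 95% Wilson intervals (statsmodels 0.14.6, pandas 2.3.3), are descriptions, and no test was run. The 46 genes and the list of 102 others were chosen with earlier results of these data known, and the span classes after seeing them. All 46 genes are counted. Coordinates are given for up to 3 genes per role with the most regions, ties included, for PS only and EPI and PS regions, and for overlapped promoters, with a few further regions chosen after their values were seen. The values of 1 further gene are not reported here. The assignment script was tested on simulated positions. Alternatives were wider or merged regions and other assignment rules.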

Additional observations from a re-analysis of the deposited data

How the results depend on the processing

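Limits. The lists hold regions without heights, so a narrow or weak region counts as much as a strong one, and depth is unknown. No paired analysis was possible because no value per library was used, and replicates could not be left out for the same reason. Of 142 values of 20 results under 10 alternative settings, 115 stayed within 1.5 times the reported count or within the interval of the reported share. Merging regions within 500 bp, assignment within 50 kb or 1 Mb, the nearest gene end for every region, any base in place of the midpoint, a gene-end window of 2.5 kb and leaving out Hdac9 moved none of the values they were applied to beyond these bounds. The share of DE only regions among those of the 46 genes stayed within its interval in every setting applied to it.

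Width mattered most, and a cut on width leaves fewer regions in any set of genes by construction. Median width was 113 bp at the 46 genes and 118 bp at other genes, both below 150 bp. Shares over all genes were not computed with such a cut, so the losses are not a result about the 46 genes. With regions of at least 150 bp, 23 of the 46 genes held one (20 DE only, 7 PS and DE, 2 PS only, 0 EPI and PS). The regions then numbered 39 (29 DE only, 8 PS and DE, 2 PS only, 0% or 0 EPI and PS). Of these 53.8% were inside and 46.2% outside the gene, and of the DE only ones 58.6% and 41.4%. With regions at least as wide as the median of their list, 63 remained (47 DE only, 12 PS and DE, 3 PS only, 1 EPI and PS); PS and DE regions were then at 11 genes and EPI and PS at 1. Kdm4a held 0 in both settings. With midpoints inside a gene only, fewer regions can count by construction: PS and DE had 17 regions, PS only 2 regions at 1 gene, and EPI and PS 1 region at 1 gene.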
